A study of Mus musculus with 4 samples.

Results

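The 3 genes from which the Sca1-BCL6Δ mouse was built, Bcl6, Ly6a and Cd79a, were examined for DNA methylation and for read coverage. Their CpGs were taken by position on mouse build mm9: chr16:23950000-24000000 for Bcl6, chr15:74810000-74845000 for Ly6a and chr7:25670000-25700000 for Cd79a. These regions held 131, 24 and 79 CpGs with at least 1 read in any library, 234 of the 1480609 CpGs covered in the series. Reduced representation bisulfite sequencing, which reads the methylation of CpGs near restriction sites, had been run on 4 libraries, with 1 library per condition and no replicate. Stem and progenitor cells of the blood (HSPCs, sorted from bone marrow as Sca1+Lin-) and mature B cells (sorted from peripheral blood as B220+) came from wild-type CBAxC57BL/6J mice and from Sca1-BCL6Δ mice of the same background. The DNA of 6 to 9 mice was pooled for each library. Neither the ages of the mice nor which of the 2 transgenic lines entered a pool was given in the sources used here.

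Bcl6 encodes a zinc finger repressor of transcription that germinal centre B cells need and that is often deregulated in B cell lymphoma. Ly6a encodes Sca1, a surface protein by which mouse stem and progenitor cells are sorted, and vectors built on its regulatory sequence drive transgenes in these cells. Cd79a encodes Igα (mb-1), a signalling chain of the B cell receptor, and is switched on early in the B lineage. Per the deposited methods text, a mouse Bcl6 cassette with an eGFP reporter, flanked by loxP sites, was placed in a Ly6a (pLy6) vector and injected into fertilised eggs. Offspring were crossed to mice that carry Cre recombinase at Cd79a (mb1-Cre), so that the Bcl6 cassette is designed to be present in HSPCs and to be cut out in B cells. Extra copies of Bcl6 or Ly6a sequence would add reads to the mm9 positions of these genes in a library that carries them. The B cells were sorted on B220, not on loss of the cassette.

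RefSeq lists 2 promoters for Bcl6 and 1 for Cd79a, and their sequences show which letters of each gene were within reach of the assay. MspI cuts at CCGG and TaqI at TCGA, and 60.5% of the 32851 mouse promoter windows of 300 bases (250 before to 50 after the start) held at least 1 of these sites. The 250 bases before each start are printed 5′ to 3′ on the strand of the gene, from RefSeq build GRCm38.p6. In the Bcl6 sequences the capitals mark CpGs that were covered in at least 1 library, and in the Cd79a sequence they mark every CpG, since none could be assigned a covered position.
Bcl6 upstream promoter: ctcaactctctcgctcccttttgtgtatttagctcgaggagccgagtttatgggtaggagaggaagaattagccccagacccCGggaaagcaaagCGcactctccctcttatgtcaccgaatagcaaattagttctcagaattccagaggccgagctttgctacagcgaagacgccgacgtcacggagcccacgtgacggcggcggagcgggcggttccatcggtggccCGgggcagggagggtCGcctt
Bcl6 downstream promoter: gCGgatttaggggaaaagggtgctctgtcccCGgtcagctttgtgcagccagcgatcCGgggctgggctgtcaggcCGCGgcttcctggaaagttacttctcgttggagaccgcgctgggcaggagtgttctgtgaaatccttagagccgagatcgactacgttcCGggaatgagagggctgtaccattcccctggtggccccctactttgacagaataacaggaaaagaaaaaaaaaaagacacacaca
Cd79a promoter: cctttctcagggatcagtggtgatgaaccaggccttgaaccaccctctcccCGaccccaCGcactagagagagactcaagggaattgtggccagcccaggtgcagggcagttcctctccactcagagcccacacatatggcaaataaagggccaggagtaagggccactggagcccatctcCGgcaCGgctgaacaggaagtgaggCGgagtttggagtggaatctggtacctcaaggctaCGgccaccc
The Bcl6 promoters were placed on mm9 from the spacing of their CpGs. The upstream promoter matched 14 covered CpGs at chr16:23988889-23989188 (next best place, 5) and the downstream promoter matched 6 at chr16:23981320-23981619 (next best, 4), and their starts lay 7569 bp apart in both builds. The upstream sequence held 21 CpGs before the start, of which 4 were covered, and the downstream sequence 13, of which 6 were covered. The Cd79a window held 1 CCGG and 0 TCGA, and no place was found for it. Ly6a is named only.

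The library labelled wild-type HSPC held 4939456 reads with a CpG, the library labelled Sca1-BCL6Δ HSPC 2614482, the library labelled wild-type B cell 8336720 and the library labelled Sca1-BCL6Δ B cell 3612662. Of the 234 CpGs, 208, 166, 224 and 189 were covered in these libraries, in that order. Coverage is therefore given relative to the mean coverage of all autosomal CpGs of the same library (6.25, 3.78, 10.5 and 4.89 reads), so that 1 is the library's own average. With 1 library per condition, a coverage difference has no replicate check, and intervals cover counting error only, since reads amplified by PCR without molecular identifiers are not independent molecules.

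Coverage of Bcl6 was highest in the library labelled wild-type HSPC. Relative coverage of the region was 1.54 in the library labelled wild-type HSPC, 1.10 in the library labelled Sca1-BCL6Δ HSPC, 0.973 in the library labelled wild-type B cell and 1.02 in the library labelled Sca1-BCL6Δ B cell. The first value stood apart and the other 3 lay close to the library average. The Sca1-BCL6Δ to wild-type ratio was 0.716 in HSPCs and 1.05 in B cells, beside medians of 0.958 and 0.939 over 20857 autosomal windows of the same length. In HSPCs 17.7% of the windows had a ratio as low or lower, so the region as a whole was not unusual. Neither ratio reached the 1.5-fold difference used here, although the HSPC ratio did (0.606) with the median coverage as denominator. It is a fold that 13.2% of windows passed in the direction of less coverage in Sca1-BCL6Δ in HSPCs and 11.1% in B cells, and 3.18% and 3.23% in the direction of more. Reads pointed the same way as CpG coverage, with 557 reads (116 reads per 1e+06 autosomal reads, RPM; 95% Poisson interval 106 to 126) in the library labelled wild-type HSPC against 206 (79.9, 69.3 to 91.6) in the library labelled Sca1-BCL6Δ HSPC.

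The excess lay in 3 short stretches in the downstream part of Bcl6. A CpG was counted as raised when a library had at least 20 reads there and at least 3 times the relative coverage of each other library, a rule chosen after the data were seen. In the library labelled wild-type HSPC 11 of the 16 Bcl6 CpGs with at least 20 reads were raised, as were 3 of 13 at Ly6a and 0 of 2 at Cd79a, 14 of 31 in all, whereas 2.24% of all 36137 CpGs of that depth on the autosomes were raised in it. No CpG of the 3 genes was raised in the library labelled wild-type B cell (0 of 48, background 4.44%) or in the library labelled Sca1-BCL6Δ B cell (0 of 15, background 1.10%). The library labelled Sca1-BCL6Δ HSPC had no CpG of the 3 genes with 20 reads (0 of 0, background 1.24%). Neighbouring raised CpGs share reads and are not independent. With a rule set after the data were seen, these counts are a description and no support.

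**Figure D1:**
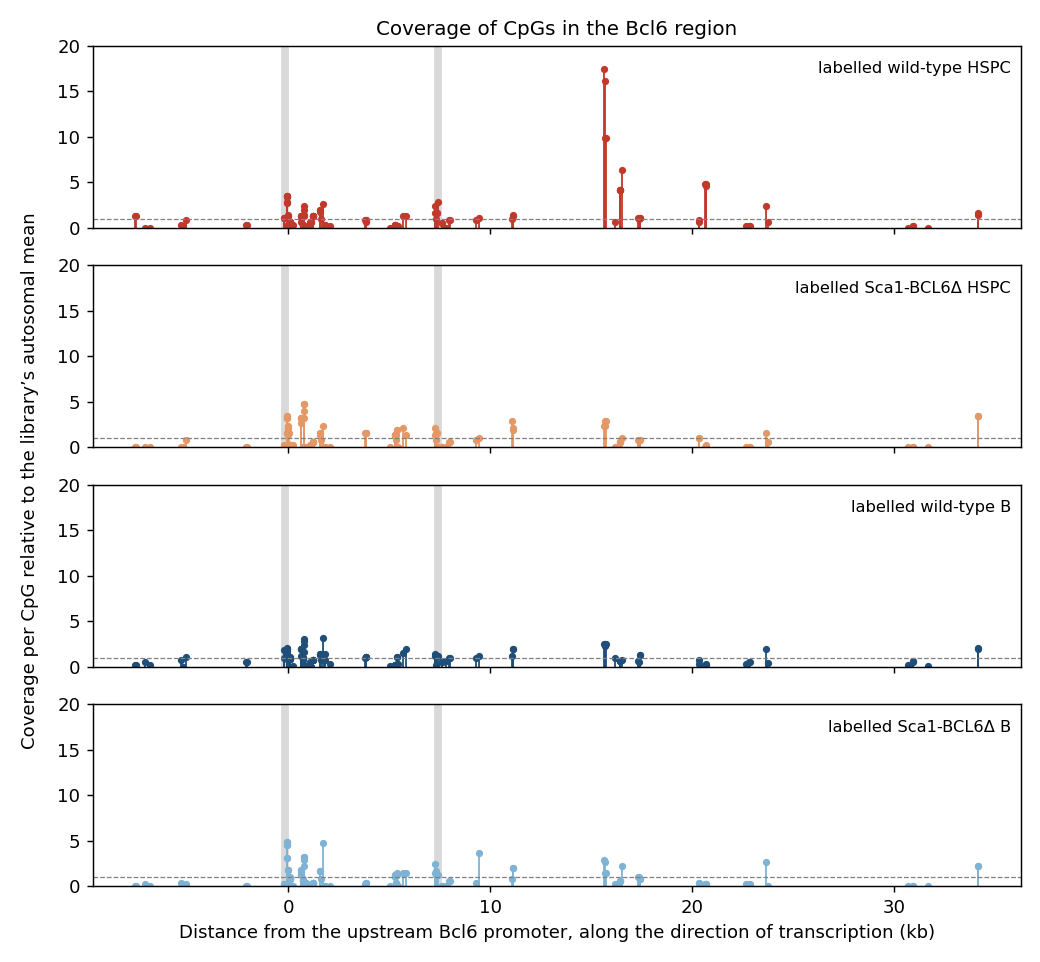
Coverage of each Bcl6 CpG relative to the autosomal mean of its library (vertical axis; the dashed line is 1) against the distance in kb from the downstream edge of the upstream promoter window along the direction of transcription, with 1 panel per library and the 2 promoter windows in grey. The 11 raised CpGs stand between 15640 and 20685 bp in the panel of the library labelled wild-type HSPC and reach 17.4, while the same CpGs are at most 2.91 in the other 3 panels.

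The 11 raised Bcl6 CpGs lay 15640 to 20685 bp beyond the downstream edge of the upstream promoter window, which is 50 bases past the start, and spanned 5045 bp. Their relative coverage was 4.16 to 17.4 in the library labelled wild-type HSPC, against 0 to 2.91, 0.190 to 2.47 and 0.204 to 2.86 in the libraries labelled Sca1-BCL6Δ HSPC, wild-type B cell and Sca1-BCL6Δ B cell. At the other 120 Bcl6 CpGs the 4 libraries had mean relative coverages of 0.974, 1.09, 0.954 and 1.02, in the same order of libraries. Both the contrast at the raised CpGs and its absence at the other 120 follow from how the raised CpGs were chosen.

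The deepest stretch, chr16:23973169-23973250 with 4 CpGs, drew 172 reads in the library labelled wild-type HSPC, 20 in the library labelled Sca1-BCL6Δ HSPC, 52 in the library labelled wild-type B cell and 21 in the library labelled Sca1-BCL6Δ B cell. In RPM these were 35.7 (95% Poisson interval 30.6 to 41.5), 7.76 (4.74 to 11.98), 6.41 (4.78 to 8.40) and 5.97 (3.70 to 9.12). The last 3 intervals overlapped each other, and the first lay above them all. The next stretch, chr16:23972352-23972713 with 6 CpGs, drew 70, 6, 25 and 15 reads in the same order, or 14.5, 2.33, 3.08 and 4.26 RPM. The farthest stretch, chr16:23968204-23968568 with 5 CpGs, drew 35, 5, 11 and 3 reads, or 7.27, 1.94, 1.35 and 0.853 RPM. In the first 3 CpGs of this stretch the library labelled wild-type HSPC had 30, 29 and 30 reads where no other library had more than 3.

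**Figure D2:**
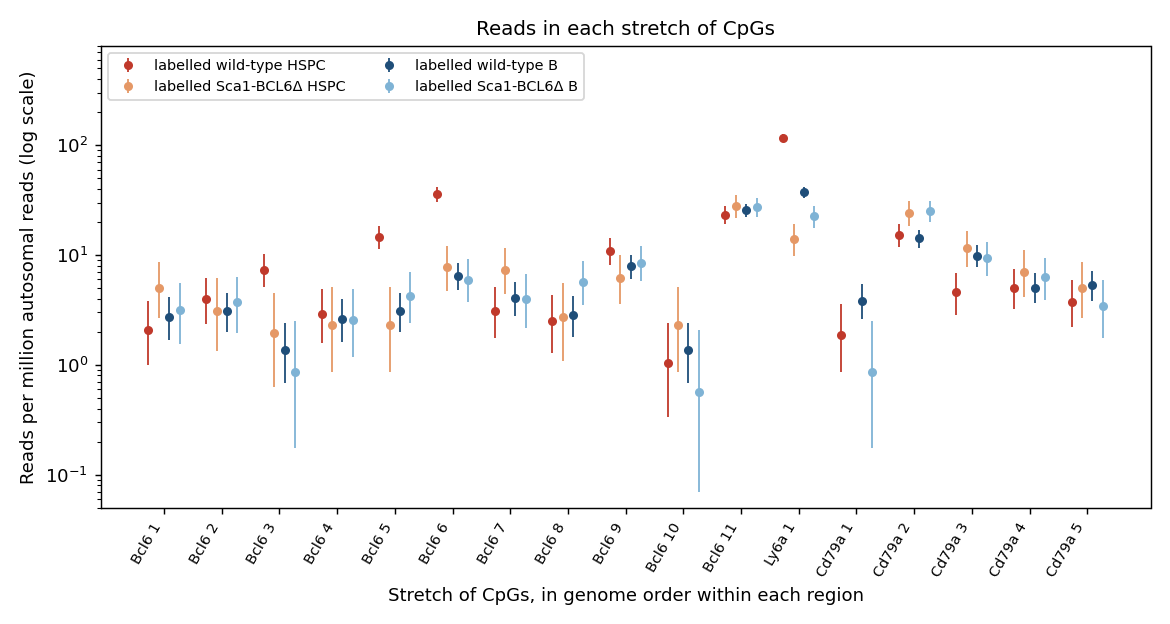
RPM (reads per unit of 1e+06 autosomal reads; log scale, bars are 95% Poisson intervals) in each of the 17 stretches of the 3 regions, numbered in genome order, with 1 colour per library; a library with 0 reads in a stretch (1 case, Cd79a 1) has no point. In Bcl6 3, 5 and 6 and in Ly6a 1 the library labelled wild-type HSPC lies above the intervals of the other 3, and in the run at the Bcl6 upstream promoter (Bcl6 11) the 4 libraries lie between 23.3 and 27.9.

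Stretches were runs of at least 2 CpGs no more than 400 bp apart with at least 20 reads per CpG summed over the libraries. The 3 regions held 17, of which 11 were at Bcl6. The library labelled wild-type HSPC had an interval above those of all 3 other libraries in 3 of the 11 Bcl6 stretches, and no other library did so in any of the 17. Of these 3 only the deepest had 20 reads per CpG without the library labelled wild-type HSPC (45.8), and the other 2, with 6.80 and 13.7, entered through the library in which they were high. How often a library stands above the others over all stretches of the genome was not taken, so the count does not set Bcl6 apart. At the CpG-rich run of the upstream promoter, chr16:23986844-23989106 with 58 CpGs, the libraries had 112, 72, 208 and 96 reads, or 23.3, 27.9, 25.6 and 27.3 RPM. Their intervals overlapped for the run as a whole. Within it the Sca1-BCL6Δ to wild-type ratio in HSPCs was 0.598 in the 1 kb tile chr16:23987001-23988000 and 1.47 in chr16:23988001-23989000. The 3 downstream stretches were picked by their raised CpGs, so their contrast with this run follows from that choice. Over the genome the 810 raised CpGs of the library labelled wild-type HSPC lay on 19 chromosomes and in 505 windows as long as the Bcl6 region, with a median of 1 per window. Bcl6 was 1 of the 2 windows with the most (11), and the only window with at least 3 raised CpGs in more than 1 tile of 1 kb (it had 3 such tiles). In the library labelled wild-type B cell 17 windows held more than 1 such tile. The rank of Bcl6 rests on the raised rule, which was chosen after the data were seen, so it is a description and no support. The flanks of the same length held 28 and 41 CpGs, in genome order. Their relative coverages were 0.926 and 1.07 in the library labelled wild-type HSPC and 1.42 and 0.633 in the library labelled Sca1-BCL6Δ HSPC. They were 0.787 and 0.867 in the library labelled wild-type B cell and 0.832 and 0.718 in the library labelled Sca1-BCL6Δ B cell. In the flank with 41 CpGs the library labelled wild-type HSPC was again the highest. The Sca1-BCL6Δ to wild-type ratio in HSPCs was 0.591 there and 1.53 in the flank with 28 CpGs.

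Ly6a coverage was also highest in the library labelled wild-type HSPC. Relative coverage of the region was 8.01 in the library labelled wild-type HSPC, 1.21 in the library labelled Sca1-BCL6Δ HSPC, 2.66 in the library labelled wild-type B cell and 1.73 in the library labelled Sca1-BCL6Δ B cell. All 4 values were above the library average, and the first was the highest. The Sca1-BCL6Δ to wild-type ratio was 0.152 in HSPCs and 0.650 in B cells, both lower by more than 1.5-fold, as were 12.6% and 12.5% of windows of the same length (4.21% and 3.5% were higher by that fold). Without the CpGs of highest coverage, which leaves 15 of the 24, the ratio was 0.424 in HSPCs and reversed to 1.33 in B cells. In HSPCs only 6 of 22084 windows (0.0272%) had a ratio as low, and in B cells 11.01% did. By reads the ratios were 0.155 (95% interval 0.112 to 0.208) and 0.658 (0.516 to 0.833).

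**Figure D3:**
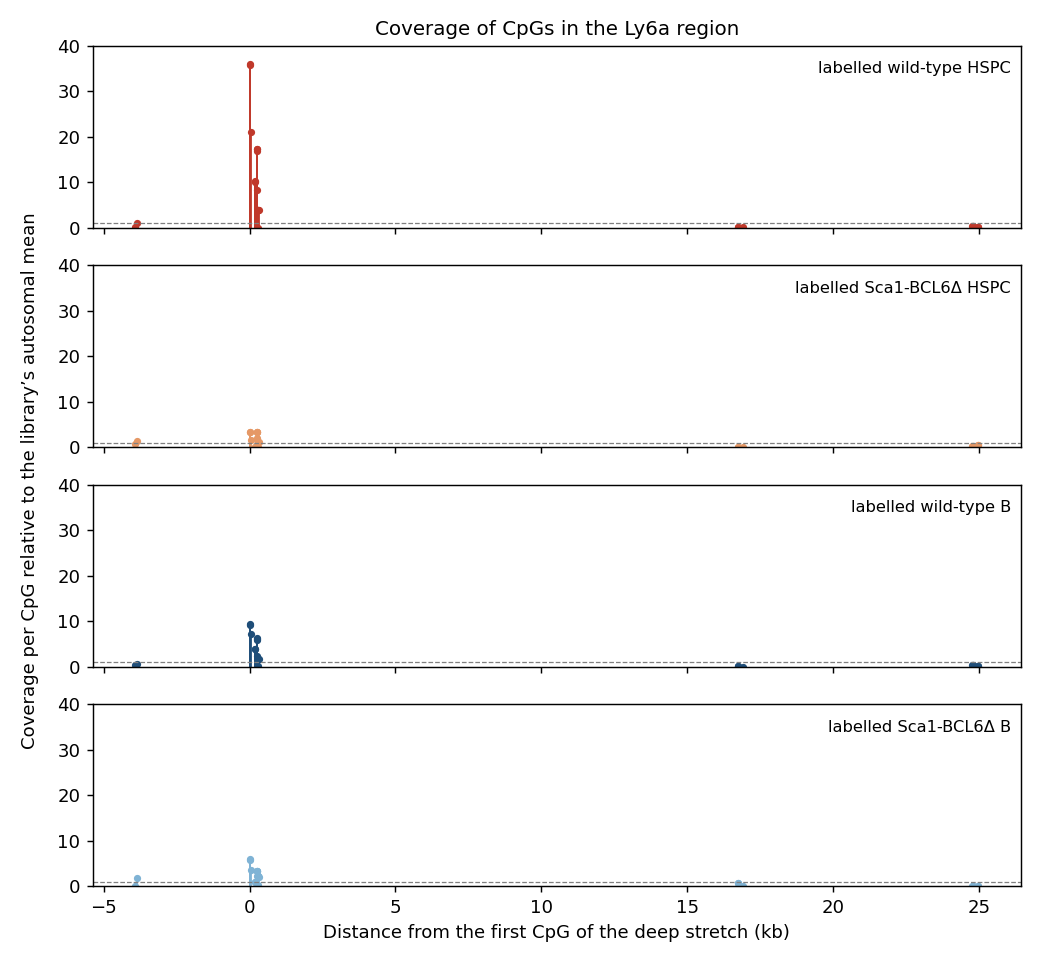
Coverage of each Ly6a CpG relative to the autosomal mean of its library (vertical axis; the dashed line is 1) against the distance in kb from the first CpG of the deep stretch, in genome order, with 1 panel per library. The stretch reaches 36.01 in the library labelled wild-type HSPC and 3.44, 9.50 and 5.93 in the libraries labelled Sca1-BCL6Δ HSPC, wild-type B cell and Sca1-BCL6Δ B cell, and the CpGs away from it lie below 2 in all 4.

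A single stretch, chr15:74818862-74819173 with 14 of the 24 CpGs, carried the Ly6a reads. It drew 554 reads in the library labelled wild-type HSPC, 36 in the library labelled Sca1-BCL6Δ HSPC, 303 in the library labelled wild-type B cell and 79 in the library labelled Sca1-BCL6Δ B cell. In RPM these were 115 (95% Poisson interval 106 to 125), 14.0 (9.78 to 19.3), 37.3 (33.2 to 41.8) and 22.5 (17.8 to 28.0). Ranked by level, no neighbours had overlapping intervals except the 2 libraries labelled Sca1-BCL6Δ, whose intervals shared the range 17.8 to 19.3. The library labelled wild-type HSPC was 8.24 times the library labelled Sca1-BCL6Δ HSPC and 3.08 times the library labelled wild-type B cell, and it had the highest relative coverage at 13 of the 14 CpGs. Of the 3 raised CpGs, chr15:74818862 had 225, 13, 100 and 28 reads, chr15:74818880 had 224, 13, 97 and 29, and chr15:74819110 had 52, 8, 26 and 11, in the order of libraries given above. The flank before Ly6a, with 31 CpGs, had relative coverages of 1.06, 0.956, 1.16 and 1.08, all near the library average. The flank after it, with 7 CpGs, had 0.983, 0.454, 0.828 and 1.02, which gave a Sca1-BCL6Δ to wild-type ratio of 0.462 in HSPCs and 1.23 in B cells. Ly6a belongs to a cluster of related Ly6 genes on chromosome 15, and reads were matched over short fragment ends, so whether reads of its relatives were assigned to this stretch was not tested.

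The deposited design puts extra Bcl6 and Ly6a sequence in Sca1-BCL6Δ mice, and neither region as a whole had more coverage by 1.5-fold in a library labelled Sca1-BCL6Δ. At Ly6a, a region chosen by position, coverage was lower in the library labelled Sca1-BCL6Δ in HSPCs (ratio 0.152) and in B cells (0.650). Without the CpGs of highest coverage the B cell ratio reversed to 1.33, while the HSPC ratio was 0.424. At Bcl6 the region as a whole was not unusual, and that the 3 stretches were higher in the library labelled wild-type HSPC follows from their choice by raised CpGs. In B cells the 3 Bcl6 stretches had overlapping intervals (6.41 against 5.97, 3.08 against 4.26 and 1.35 against 0.853 RPM in wild-type against Sca1-BCL6Δ). The cause was not tested, and the directions in the following comparisons are those of the labels.

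Cd79a itself was not measured. In RefSeq, Cd79a lies between Rps19, a ribosomal protein gene, and Arhgef1, and its promoter starts 5239 bp before the first Arhgef1 promoter in GRCm38.p6 and points towards it. The Rps19 and Arhgef1 promoters were placed on mm9 from 25 and 21 matching CpGs, at chr7:25669682-25669981 and chr7:25687755-25688054, and lay 18073 bp apart in both builds. In the mm9 files no CpG was covered in the 9209 bp between chr7:25677964 and chr7:25687173, that is from 9791 to 582 bp before the Arhgef1 promoter. The start of Cd79a falls in this gap by its distance to Arhgef1. The 79 CpGs of the region lie on either side of this gap, and Cre inserted at Cd79a could not be seen in them.

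Coverage of the Cd79a region was lowest in the library labelled wild-type HSPC. Relative coverage was 0.895 in the library labelled wild-type HSPC, 1.28 in the library labelled Sca1-BCL6Δ HSPC, 1.17 in the library labelled wild-type B cell and 1.25 in the library labelled Sca1-BCL6Δ B cell. The Sca1-BCL6Δ to wild-type ratio was 1.43 in HSPCs and 1.07 in B cells, within the 1.5-fold bound that 4.76% and 3.79% of windows passed upwards and 12.6% and 13.1% downwards. By reads the libraries had 40.1 RPM (95% Poisson interval 34.6 to 46.2), 52.7 (44.2 to 62.4), 51.0 (46.2 to 56.2) and 55.4 (47.9 to 63.8), and the ratio was 1.32 (1.05 to 1.65) in HSPCs and 1.09 (0.912 to 1.29) in B cells. The flanks gave ratios of 1.21 and 1.46 in HSPCs and 1.09 and 1.16 in B cells, about those of the region.

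Fixed tiles of 1 kb placed the differences more closely. Of 17 tiles with enough reads, 8 had at least 1.5-fold lower relative coverage in Sca1-BCL6Δ in HSPCs (background 24.1% of 87317 autosomal tiles) and 5 in B cells (background 22.7%), while 4 and 1 were higher (backgrounds 22.2% and 20.3%). Bcl6 held 5 of the 8 lower tiles in HSPCs and 1 of the 5 in B cells. Tiles needed at least 20 reads per CpG summed over the libraries, so a tile could enter through the library in which it was high. The lower Bcl6 tiles in HSPCs starting at chr16:23968001, 23972001, 23981001 and 23987001 fell short of that without the library labelled wild-type HSPC. The tile counts are therefore not read as a result about the 3 genes. Of the 17, 3 had at least 1.5-fold lower relative coverage in Sca1-BCL6Δ in both cell types (background 11.9%) and 1 was higher in both (background 7.16%). The 3 lower tiles were both Ly6a tiles, at chr15:74818001-74819000 (ratio 0.0911 in HSPCs and 0.591 in B cells) and chr15:74819001-74820000 (0.174 and 0.650), and the tile at chr7:25670001-25671000 near Rps19 (0 and 0.196). The tile near Rps19 entered through the library labelled wild-type B cell, which had 18.3 reads per CpG there. The higher tile was chr7:25687001-25688000 at the Arhgef1 promoter (1.97 and 1.61). None of the 9 Bcl6 tiles passed in both cell types. The Bcl6 tiles that hold the raised CpGs had HSPC ratios of 0.152, 0.134 and 0.198 and B cell ratios of 0.837, 1.12 and 0.865, in genome order.

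Methylation of Bcl6 was lower at its promoters than in its downstream stretches. Over the 36 Bcl6 CpGs with at least 5 reads in all 4 libraries, mean methylation was 28.5% (SD 27.6 over CpGs) in the library labelled wild-type HSPC, 28.9% (SD 38.5) in the library labelled Sca1-BCL6Δ HSPC, 30.0% (SD 37.3) in the library labelled wild-type B cell and 29.9% (SD 39.7) in the library labelled Sca1-BCL6Δ B cell. The 4 means lay within 1.5 percentage points of each other, far less than the spread over CpGs. Pooled over the reads of the same 36 CpGs, where deep CpGs weigh more, they were 45.3% (95% Wilson interval 41.7 to 48.9), 29.4% (24.9 to 34.5), 34.2% (30.7 to 37.8) and 26.7% (22.7 to 31.1), and the first interval lay above the other 3. Neighbouring CpGs share reads, and a read counts once for each of its CpGs, so intervals of pooled levels are too narrow. The tile chr16:23973001-23974000 held 334 of the 722 counts in the library labelled wild-type HSPC, and 245 of the 334 were methylated. It held 40 of 343, 102 of 688 and 41 of 424 counts in the other 3. The first pooled level thus leans on this deep tile, and its separation is not read as a difference in methylation. Windows of the same length had median levels of 56.4%, 67.6%, 70.8% and 70.2%. The library labelled wild-type HSPC had fewer CpGs at the extremes: 2 above 80% and 17 below 20%, against 8 to 9 and 24 in the other 3. The same windows had a 95th percentile of 89.56% in that library, against 100%, 98.96% and 100% in the other 3. Their 5th percentile was 10.07%, against 8.8%, 9.301% and 8.647%. No share of such CpGs over the genome was taken, so these counts do not set Bcl6 apart.

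**Figure D4:**
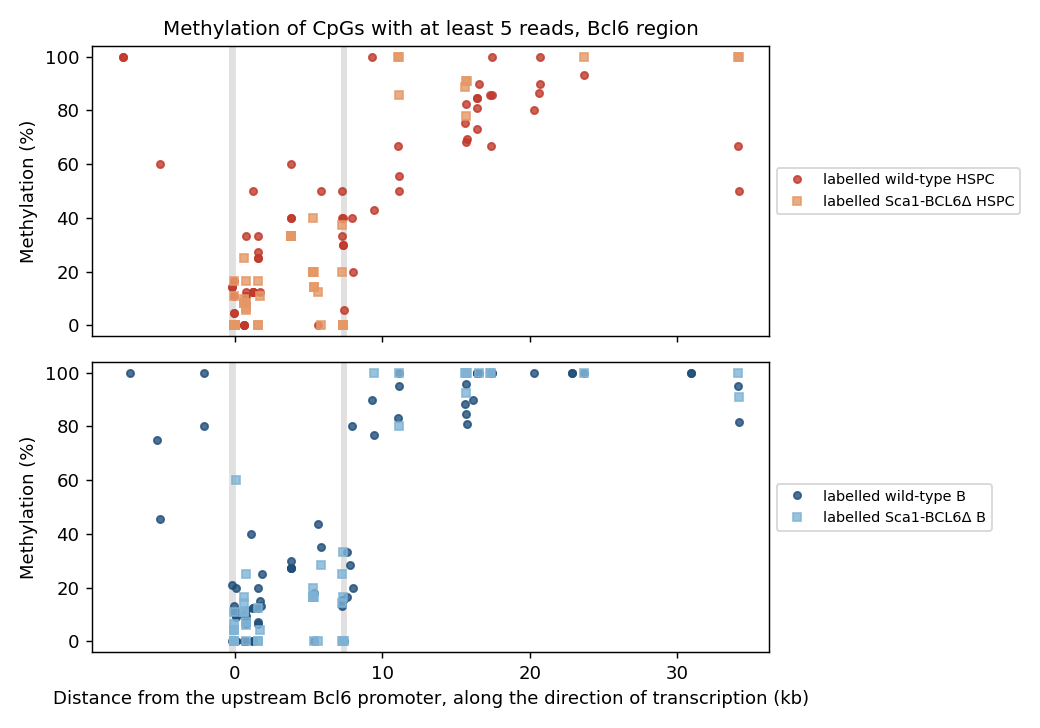
Methylation (%) of each Bcl6 CpG with at least 5 reads in the library against the distance in kb from the downstream edge of the upstream promoter window along the direction of transcription; HSPC libraries above, B cell libraries below, promoter windows in grey. Levels are mostly low around and between the 2 promoters. In the library labelled wild-type HSPC the ranges overlap, with 60% at chr16:23985052 between the promoters and 42.9% at chr16:23979423 beyond them.

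At the upstream Bcl6 promoter pooled methylation was 4.79% (8 of 167 reads summed over CpGs; 95% Wilson interval 2.45 to 9.17), 1.89% (2 of 106; 0.519 to 6.62), 3.57% (7 of 196; 1.74 to 7.19) and 3.18% (5 of 157; 1.37 to 7.24) in the libraries labelled wild-type HSPC, Sca1-BCL6Δ HSPC, wild-type B cell and Sca1-BCL6Δ B cell. All 4 intervals overlapped, and none reached 10%. At the downstream promoter the values were 27.5% (19 of 69; 18.4 to 39.0), 13.8% (4 of 29; 5.50 to 30.6), 8.70% (6 of 69; 4.05 to 17.7) and 11.4% (5 of 44; 4.95 to 24.0). The interval of the library labelled wild-type HSPC lay just above that of the library labelled wild-type B cell (18.4 against 17.7) and overlapped the other 2. A read counts once for each of its CpGs here, so these intervals are too narrow and the separation is not read as a difference. The raised CpGs were methylated in every library, with pooled levels of 78.0%, 83.7%, 90.5% and 96.4%.

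Level varied between the stretches of Bcl6. In the order of libraries used above, it was 11.2%, 8.80%, 6.91% and 5.82% in the promoter run, 47.4%, 33.3%, 27.9% and 0% at chr16:23985052-23985065, 29.5%, 15.8%, 19.0% and 10.5% at chr16:23980884-23981636, and 56.5%, 96.2%, 94.4% and 91.7% at chr16:23977750-23977827. In the most downstream stretch, chr16:23954717-23954745, it was 57.9%, 100%, 88.4% and 95.5%, beside 91.8%, 100%, 100% and 100% at chr16:23968204-23968568. The library labelled Sca1-BCL6Δ HSPC was equal in both, and the others were lower in the most downstream stretch. The library labelled wild-type HSPC had the lowest level of the 4 in 7 of the 11 Bcl6 stretches. It also had the lowest median level over autosomal windows as long as the region (56.4%, against 67.6%, 70.8% and 70.2%). No share over all stretches of the genome was taken, so the count does not set Bcl6 apart. In the deepest stretch, 23 of its 172 reads carried no methylated CpG, against 2 of 20, 3 of 52 and 0 of 21 in the other 3 libraries.

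Among 1 kb tiles with at least 3 CpGs of at least 5 reads in all 4 libraries, Bcl6 had 4. How often a library is the lowest or the highest over all tiles was not taken, so ranks within these tiles do not set Bcl6 apart. Mean level at chr16:23973001-23974000 was 73.8% (SD 6.41 over 4 CpGs) in the library labelled wild-type HSPC against 87.1%, 87.4% and 98.1% in the other 3. At chr16:23981001-23982000 it was 34.7% (SD 5.06 over 5 CpGs) against 11.5%, 11.9% and 12.9%. At chr16:23987001-23988000 it was 22.4% (SD 6.71 over 4 CpGs) against 6.94%, 12.2% and 4.21%. At chr16:23988001-23989000, the upstream promoter, the 4 levels were 6.38%, 6.67%, 4.39% and 6.46% over 16 CpGs. None of these tiles was called in a test.

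Ly6a had little methylation in its deep stretch. Pooled over its 14 CpGs the level was 15.6% (95% Wilson interval 13.6 to 17.8) in the library labelled wild-type HSPC, 7.37% (3.61 to 14.4) in the library labelled Sca1-BCL6Δ HSPC, 12.4% (10.05 to 15.1) in the library labelled wild-type B cell and 11.2% (7.42 to 16.5) in the library labelled Sca1-BCL6Δ B cell. All 4 were low, and neighbouring intervals overlapped. Most reads carried no methylated CpG: 419 of 554, 30 of 36, 239 of 303 and 60 of 79. A smaller number were methylated at every CpG they covered, 71, 3, 32 and 4 reads. In tiles, chr15:74818001-74819000 had levels of 18.9%, 18.8%, 14.8% and 14.3% over 3 CpGs, and chr15:74819001-74820000 had 6.77%, 0%, 4.55% and 10.9% over 4 CpGs. The Ly6a CpG at chr15:74814985, outside the stretch, was methylated in all of its 6, 5, 7 and 9 reads. Over the 8 Ly6a CpGs with at least 5 reads in all 4 libraries the mean level was 23.0% (SD 32.4 over CpGs), 19.6% (SD 34.5), 20.3% (SD 33.5) and 23.3% (SD 34.3).

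In the Cd79a region the measured CpGs lay away from Cd79a, many of them at the Arhgef1 promoters. Mean level over 24 CpGs was 24.8% (SD 29.8 over CpGs) in the library labelled wild-type HSPC, 21.6% (SD 35.6) in the library labelled Sca1-BCL6Δ HSPC, 21.2% (SD 35.1) in the library labelled wild-type B cell and 26.6% (SD 37.0) in the library labelled Sca1-BCL6Δ B cell. Again the 4 means were much closer than the CpGs within a library. The promoter tiles were low: chr7:25687001-25688000 had 10.1%, 4.86%, 6.50% and 1.67% over 6 CpGs, and chr7:25689001-25690000 had 6.44%, 10.5%, 2.57% and 11.3% over 8 CpGs. The tile between them, chr7:25688001-25689000, had 22.9%, 2.08%, 10.2% and 23.0% over 6 CpGs, lower in Sca1-BCL6Δ in HSPCs and higher in B cells. Farther on, the stretch chr7:25694288-25694355 was methylated at 85.7%, 97.1%, 98.5% and 100%.

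**Figure D5:**
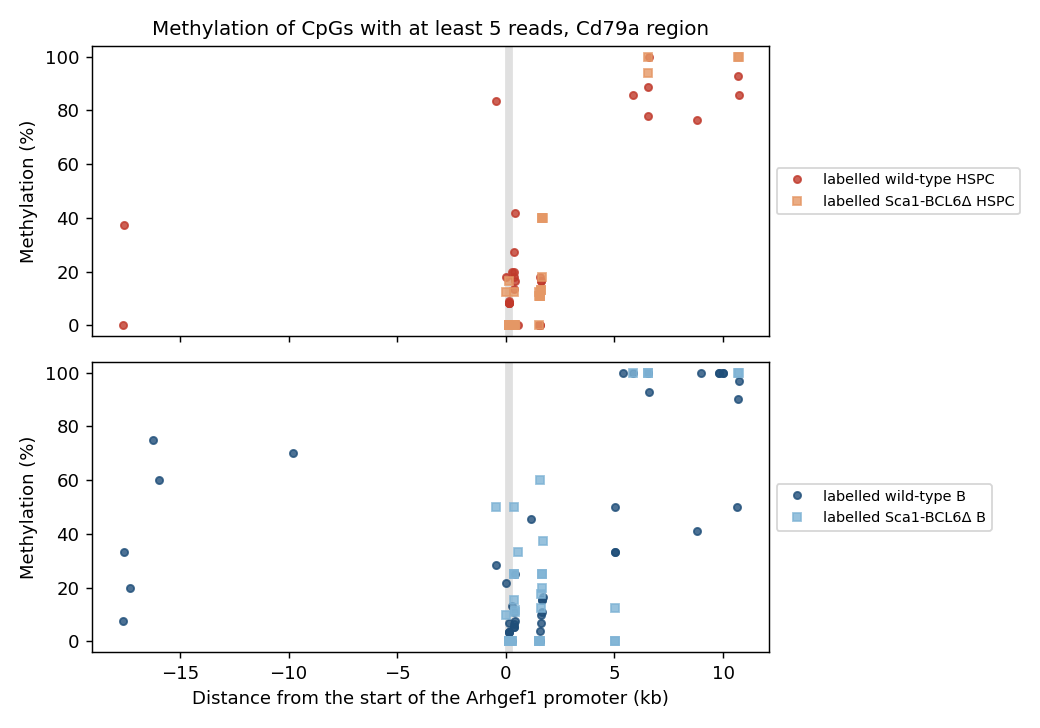
Methylation (%) of each CpG of the Cd79a region with at least 5 reads in the library against the distance in kb from the start of the first Arhgef1 promoter window (grey); HSPC libraries above, B cell libraries below. Levels are low around the Arhgef1 promoters, and no CpG is plotted in the 9209 bp where Cd79a starts.

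No CpG of the 3 genes was called differentially methylated in any comparison. Each CpG with at least 10 reads in both libraries was tested by a two-sided Fisher's exact test with Benjamini-Hochberg adjustment over all CpGs tested in the genome, and called at an adjusted p under 0.05 with a difference of at least 20 percentage points. The test compares the reads of 2 libraries, not the conditions. For Sca1-BCL6Δ against wild-type HSPCs 0 of 25 CpGs were called (background 0.037%), with 1 at an unadjusted p under 0.05 (background 4.44%). For Sca1-BCL6Δ against wild-type B cells 0 of 44 were called (background 0.0172%), with 1 at an unadjusted p under 0.05 (background 1.68%). For wild-type B cells against wild-type HSPCs 0 of 59 were called (background 0.734%), with 2 at an unadjusted p under 0.05 (background 10.6%). For Sca1-BCL6Δ B cells against Sca1-BCL6Δ HSPCs 0 of 27 were called (background 0.0183%), with 1 at an unadjusted p under 0.05 (background 1.74%). The smallest adjusted p was 0.160, in the wild-type B cell to HSPC comparison at Bcl6. With 0 calls at backgrounds this low, the counts do not set the 3 genes apart. The Cochran-Mantel-Haenszel test of 1 kb tiles called 0 of 3, 5, 9 and 4 tiles of the 3 genes in the same comparisons (backgrounds 0.0357%, 0.00517%, 0.804% and 0.018%).

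Each library entered 2 of these comparisons, so they are not independent. In wild-type B cells against HSPCs, 39 of 59 CpGs were lower and 13 higher in B cells, with a median difference of -4.55 percentage points. Over all 289105 CpGs tested, 88802 were lower and 152573 higher, with a median of 2.19. The 59 had a mean level of 27.5% in wild-type HSPCs, beside 38.9% over all CpGs tested. Many of the 59 are neighbours that share reads, so the count is not one of independent CpGs. For Sca1-BCL6Δ against wild-type the median was -2.78 percentage points in HSPCs (8 higher, 15 lower) and 0 in B cells (15 higher, 19 lower). Over all CpGs tested it was 0 in HSPCs (43520 higher, 36836 lower) and 0 in B cells (71925 higher, 74280 lower). From HSPCs to B cells of Sca1-BCL6Δ mice the median at the 3 genes was 0 (12 higher, 5 lower), also beside 0 (37101 higher, 34990 lower).

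The CpG of the 3 genes with the largest difference was chr16:23954717 at Bcl6 in the HSPC genotype comparison. It was methylated in 13 of 13 reads (100%) of the library labelled Sca1-BCL6Δ HSPC and in 5 of 10 (50%) of the library labelled wild-type HSPC (Fisher's exact test, p = 0.00749, adjusted p = 0.684). In the B cell libraries it was methylated in 10 of 11 and 18 of 22 reads, and the library labelled wild-type HSPC was the low one of the 4. The largest Bcl6 difference between B cell genotypes was at chr16:23979423, with 18 of 18 against 10 of 13 reads in wild-type (Fisher's exact test, p = 0.0636, adjusted p = 1).

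At Ly6a the largest differences were at chr15:74819127 in 3 of the 4 comparisons. This CpG was methylated in 7 of 16 reads (43.8%) of the library labelled Sca1-BCL6Δ B cell, 12 of 66 (18.2%) of the library labelled wild-type B cell, 19 of 108 (17.6%) of the library labelled wild-type HSPC and 0 of 13 of the library labelled Sca1-BCL6Δ HSPC. The 2 Sca1-BCL6Δ libraries were at the ends and the 2 wild-type libraries nearly equal. Fisher's exact test gave p = 0.00843 for Sca1-BCL6Δ B cells against Sca1-BCL6Δ HSPCs and p = 0.0458 for the B cell genotypes, both with an adjusted p of 1. A count of 0 in 13 reads allows a level of up to 22.8% (Wilson interval). In wild-type development the largest Ly6a difference was at chr15:74819036, with 6 of 41 reads in B cells and 14 of 63 in HSPCs.

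In the Cd79a region the largest difference was at chr7:25696557, methylated in 7 of 17 reads (41.2%) of the library labelled wild-type B cell and 13 of 17 (76.5%) of the library labelled wild-type HSPC (Fisher's exact test, p = 0.0799, adjusted p = 0.581). The largest in the other 3 comparisons were 13.2 to 16.7 percentage points in size, at chr7:25688170 between B cell genotypes, chr7:25694303 between HSPC genotypes and chr7:25687902 between the Sca1-BCL6Δ libraries. None of these passed even an unadjusted p of 0.05.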

How the data were processed

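Bisulfite reads of 4 libraries had been aligned by the authors with a proprietary pipeline to the ends of predicted MspI-TaqI fragments, per the deposited methods text. The version of the pipeline is not given in the sources used here. Per the labels the build is mm9. No removal of PCR duplicates is recorded in either source. The deposited CpG files gave the methylated and total reads of each CpG as a pair of whole numbers, and a score that is 1000 times the methylated share, per the file headers and values. The deposited read files gave for each read the count of its CpGs and the percent of them methylated. CpGs were joined by position, since 22135 carried a different strand label between libraries.

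Relative coverage was a CpG's reads, 0 where missing, over the library's mean for all autosomal CpGs of the union. Its background was all windows of equal length with at least 20 CpGs, or 1 kb tiles. CpGs were tested by Fisher's exact test, tiles of at least 3 CpGs thinned to over 50 bp apart by the Cochran-Mantel-Haenszel test, both adjusted over the whole genome and tested on simulated data (Python 3.11.15, scipy 1.17.1, pandas 2.3.3, numba 0.67.0). Named were all 3 genes, every called CpG or tile, tiles with at least 3 CpGs of at least 5 reads in all 4 libraries, tiles past 1.5-fold coverage in both cell types, and the CpG with the largest difference in each comparison. The genes and lists were chosen with earlier results of these data known. No exon or intron positions are given, since no mm9 annotation was used here. Alternatives covered read minimums, tile size, the coverage denominator and the definition of a raised CpG.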

Additional observations from a re-analysis of the deposited data

Results flagged for a closer look

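In each of these results the difference between Sca1-BCL6Δ and wild-type had opposite signs in HSPCs and in B cells, with 1 library per condition, and the difference between the cell types was not tested. None of the 4 pairs kept opposite signs under every alternative. The Bcl6 coverage ratio was 0.716 in HSPCs and 1.05 in B cells, and 0.977 in B cells with the median coverage as denominator. The Bcl6 level differed by 0.352 percentage points in HSPCs and by -0.0863 in B cells, both far below the spread over its CpGs; with a minimum of 10 reads both genotype differences were upward (14.4% to 17.5% and 14.0% to 18.6%). The Ly6a level differed by -3.41 percentage points in HSPCs and 2.99 in B cells, and with a minimum of 1 read B cells also went down, from 18.3% to 16.4%. The Cd79a region's level differed by -3.16 percentage points in HSPCs and 5.43 in B cells, and with a minimum of 10 reads B cells also went down, from 27.3% to 25.04%.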

How the results depend on the processing

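No paired analysis was possible because each condition had 1 library, and for the same reason no library could be left out. CpG and tile calls at the 3 genes stayed at 0 under all 16 and 12 alternatives. Of 24 coverage ratios 20 kept their value within error. Without the CpGs of highest coverage, a choice that leaves 126 of 131 Bcl6 and 15 of 24 Ly6a CpGs and so takes out most of the Ly6a stretch itself, the ratio was 0.930 for Bcl6 and 0.424 for Ly6a in HSPCs, and reversed to 1.33 for Ly6a in B cells. With a median denominator Bcl6 in HSPCs gave 0.606. Raised CpGs in the library labelled wild-type HSPC numbered 21 at 2-fold and 9 at 5-fold, all 9 at Bcl6, so that the 3 at Ly6a were lost; 3 were raised in the library labelled wild-type B cell with a minimum of 10 reads (all settings of this rule were chosen after seeing the data). Of 48 levels 24 moved, 19 with other CpGs and 5 with pooled counts of the same CpGs. In the order wild-type HSPC, Sca1-BCL6Δ HSPC, wild-type B cell, Sca1-BCL6Δ B cell, a minimum of 10 reads gave 14.4%, 17.5%, 14.0% and 18.6% for Bcl6, 10.96%, 4.62%, 8.06% and 15.1% for Ly6a, and 27.3% for Cd79a in wild-type B cells. A minimum of 1 read gave 32.3%, 39.8% and 33.7% for Bcl6 in the first 3, 16.4% for Ly6a in Sca1-BCL6Δ B cells, and 30.2% and 27.2% for Cd79a in HSPCs. All CpGs with 5 reads in the library gave 43.2% (wild-type HSPC) and 37.1% (wild-type B) for Bcl6, 16.9% for Ly6a in Sca1-BCL6Δ B cells and 35.6% for Cd79a in wild-type B cells. Pooled counts gave 45.3% and 34.2% for Bcl6 in wild-type HSPCs and B cells, and 14.3%, 11.9% and 11.6% for Ly6a in the first 3. The mean coverage of 3.78 to 10.5 reads limits single CpG tests.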
